A study of Mus musculus with 5 samples.

Results

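The receptor for interferon gamma, its kinases, and the factors and inhibitors downstream of it were measured as 8 genes, Ifngr1, Ifngr2, Jak1, Jak2, Stat2, Irf1, Socs1 and Socs3. They were taken by symbol from the 31053 genes in the files. Hearts came from Ctla4+/+Pdcd1-/- mice, the control group of 4 mice in 2 libraries, and from Ctla4+/-Pdcd1-/- mice, the disease group of 10 mice in 3 libraries, a model of the myocarditis that follows immune checkpoint inhibition. All animals thus lacked Pdcd1, the gene of the inhibitory receptor PD-1, and the groups differed in 1 copy of Ctla4. Hearts were pooled, digested and sorted for DRAQ5+DAPI- cells, and each library was made with 10x Genomics 5-prime chemistry. The age, sex, strain and treatment of the mice, and which mice were pooled into which library, are not given in the sources used here. The genotype labels of single libraries spell the second gene as Pdcd1, Pdcd2 or Pdcd3 where the series' design has Pdcd1 throughout, and number the DRAQ dye likewise, so libraries were grouped by Ctla4.

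Interferon gamma is made mainly by T cells and NK cells. It binds Ifngr1, the ligand-binding chain, which signals together with Ifngr2, and the Jak1 and Jak2 kinases attached to these chains phosphorylate Stat proteins that enter the nucleus and induce genes, among them the transcription factor Irf1 and the inhibitor Socs1. Socs1 blocks the kinases, and Socs3 does the same mainly at receptors of the interleukin 6 family, while Stat2 carries the signal of type I interferons. In inflamed tissue this pathway raises antigen presentation and chemokines in macrophages and endothelial cells.

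After filters on depth, mitochondrial share and doublets, between 5507 and 9496 cells per library remained, with 23142598 to 48447357 unique molecular identifiers (UMIs, 1 per captured transcript) and a median of 3335 to 4527 UMIs per cell. Cells were assigned by marker UMIs to 10 lineages, and 5 lineages had at least 50 cells in every library and were tested: endothelial cells, fibroblasts, macrophages or monocytes, T cells and B cells. T cells were few in control 2 (86 cells) and disease 3 (116 cells) and most numerous in disease 4 (2136 cells). Any 2 libraries shared 49 to 98 cell barcodes. In T cells the targeted genes did not separate the groups: Ctla4 was at 438 and 69 against 141, 642 and 555 CPM, and Pdcd1 at 584 and 74.1 against 267, 1061 and 832, controls first, so transcripts of the deleted gene were still counted. Which part of Pdcd1 was deleted is not given in the sources used here, so this does not test the labels. All levels are UMIs of the gene per 1000000 UMIs of the same cells and library (CPM), and control libraries are numbered 1 and 2 and disease libraries 3, 4 and 5.

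The 250 bases before the start of Ifngr2, Stat2, Irf1 and Socs1 (RefSeq, GRCm38.p6) are shown because these are the receptor chain that was lower in disease, the factors Stat2 and Irf1, which did not pass the test, and the inhibitor whose difference varied between lineages. Capitals mark matches, on either strand, to the Stat-binding GAS motif TTCNNNGAA, which is its own reverse complement, or to the interferon-stimulated response element (ISRE), which is GAAA, any 2 bases and GAAA again. Ifngr2 is at chr16:91546809-91547058, plus strand, Stat2 at chr10:128270248-128270497, plus strand, Irf1 at chr11:53769764-53770013, plus strand, and Socs1 at chr16:10785537-10785786, minus strand, and each run is written 5′ to 3′ on the gene's strand.
Ifngr2: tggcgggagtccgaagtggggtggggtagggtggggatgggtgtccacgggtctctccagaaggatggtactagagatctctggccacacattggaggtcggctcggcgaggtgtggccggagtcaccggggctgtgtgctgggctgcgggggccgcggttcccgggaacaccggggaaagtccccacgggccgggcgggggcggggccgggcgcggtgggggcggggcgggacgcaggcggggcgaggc
Stat2: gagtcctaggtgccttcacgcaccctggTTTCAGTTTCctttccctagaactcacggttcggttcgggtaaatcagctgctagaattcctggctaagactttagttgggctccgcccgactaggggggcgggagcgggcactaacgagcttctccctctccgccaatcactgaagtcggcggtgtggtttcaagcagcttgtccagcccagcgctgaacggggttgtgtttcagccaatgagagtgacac
Irf1: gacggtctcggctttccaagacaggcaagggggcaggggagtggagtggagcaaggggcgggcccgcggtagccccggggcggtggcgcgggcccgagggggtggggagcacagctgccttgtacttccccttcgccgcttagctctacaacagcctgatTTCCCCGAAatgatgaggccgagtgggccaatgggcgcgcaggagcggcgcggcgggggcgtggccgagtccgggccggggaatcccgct
Socs1: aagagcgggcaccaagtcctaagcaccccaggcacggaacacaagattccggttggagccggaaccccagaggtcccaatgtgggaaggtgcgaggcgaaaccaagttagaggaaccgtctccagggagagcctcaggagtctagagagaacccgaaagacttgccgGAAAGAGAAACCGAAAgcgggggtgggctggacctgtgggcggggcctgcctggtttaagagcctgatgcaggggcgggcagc

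In 300-base windows that run 50 bases past each start, Irf1 had the GAS match TTCCCCGAA beginning 90 bases before the start, and Socs1 had the overlapping ISRE matches GAAAGAGAAA and GAAACCGAAA, beginning 83 and 77 bases before it. Stat2 had an ISRE match, TTTCAGTTTC, 222 bases before its start, and Socs3 a GAS match, TTCTTAGAA, 154 bases before its start. A second Irf1 start and the windows of Ifngr1, Ifngr2, Jak1 and Jak2 held neither motif. Of 32851 RefSeq promoter windows of the same length, 8.3% held the GAS letters and 3.44% the ISRE letters. A match is a description of letters, not of a bound site.

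Between the groups, 3 of the 8 genes passed the test in all kept cells summed per library, and all of these were lower in disease: Ifngr2, Socs1 and Socs3 (edgeR quasi-likelihood F test, Benjamini-Hochberg adjusted p under 0.05). Of all 16130 genes tested, 6.44% were called lower and 0.0496% higher. Within lineages, 12 of the 40 gene and lineage pairs were called, again all lower and none higher. DESeq2 called 17, all lower, where it called 10.2% of the 52297 tests of all genes in the 5 lineages lower and 0.964% higher. At an unadjusted p under 0.05 edgeR had 20 of 40 lower and 0 higher, beside 17.6% and 4.83% of all tests. The edgeR calls were 3 of 8 in endothelial cells, where 11.6% of all genes were called lower, 4 of 8 in fibroblasts (12.6%), 1 of 8 in macrophages or monocytes (6.52%), 2 of 8 in T cells (5.42%) and 2 of 8 in B cells (8.29%). The shares of all genes called higher were, in the same order, 0.284%, 0.365%, 0.063%, 0.0103% and 0.224%. The libraries of the 2 groups did not overlap for 26 of the 40 pairs: 5 of 8 genes in endothelial cells, fibroblasts, T cells and B cells and 6 of 8 in macrophages or monocytes, against 49.9%, 50.5%, 32.3%, 38.6% and 36.8% of all genes. In all kept cells 5 of 8 did not overlap, against 36.4%. In sums over many cells, fewer cells of a type and less RNA per cell cannot be told apart. Mice were pooled, so p-values measure the spread between libraries.

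**Figure D1:**
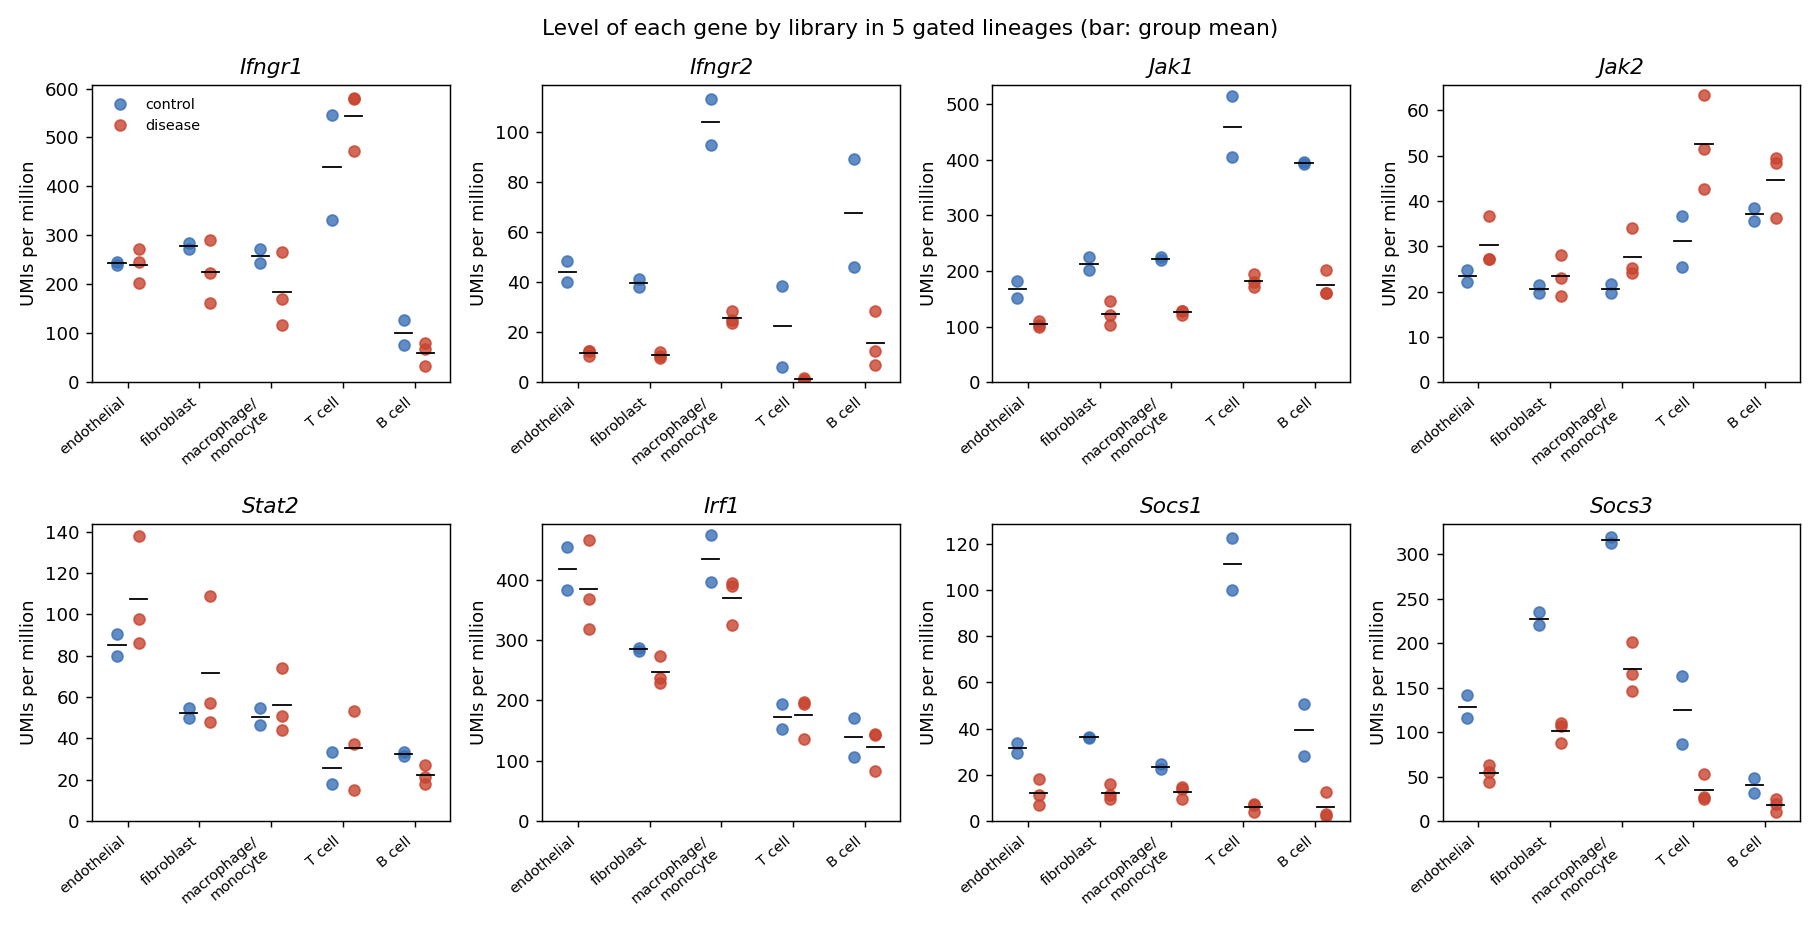
Level of each of the 8 genes (y axis, CPM, from 0) in 5 lineages (x axis), with 1 point per library, blue for the 2 control and red for the 3 disease libraries, and a bar at each group mean. Ifngr2, Jak1, Socs1 and Socs3 points of the disease libraries lie under both control points in every lineage, while Ifngr1, Irf1 and Stat2 points mostly intermix.

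Of the receptor chains, Ifngr2 was lower in disease and Ifngr1 did not pass the test. Ifngr1, the ligand-binding chain, was at 275 and 258 in controls 1 and 2, and 280.3, 228 and 252 in disease libraries 3, 4 and 5 over all kept cells, and the groups overlapped (log2 fold change -0.04 ± 0.15 (SE), adjusted p = 0.907). It was not called in any lineage, with log2 fold changes from -0.67 in B cells to 0.32 in T cells. In fibroblasts its level was 272 and 284 in controls 1 and 2, and 289.7, 161 and 223 in disease libraries 3, 4 and 5. In macrophages or monocytes it was 243 and 273 in controls 1 and 2, and 266, 118 and 169 in disease libraries 3, 4 and 5. In both lineages disease 3 was above control 1 and disease 4 was the lowest library.

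Ifngr2, the chain that brings Jak2 to the receptor, was at 56.2 and 47.5 in controls 1 and 2, and 13.1, 13.8 and 13.2 in disease libraries 3, 4 and 5 over all kept cells. Every disease library was under every control (log2 fold change -1.92 ± 0.18 (SE), adjusted p = 0.00556). In endothelial cells the levels were 48.5 and 39.9 in controls 1 and 2, and 12.7, 10.4 and 12.6 in disease libraries 3, 4 and 5 (log2 fold change -1.95 ± 0.15 (SE), adjusted p = 0.000985). In fibroblasts they were 41.2 and 38 in controls 1 and 2, and 9.88, 10.5 and 12.1 in disease libraries 3, 4 and 5 (log2 fold change -1.91 ± 0.14 (SE), adjusted p = 0.000902). The disease libraries lay close to each other and far under the controls in both. Macrophages or monocytes, where Ifngr2 was highest, had 113 and 94.8 in controls 1 and 2, and 24.9, 28.5 and 23.6 in disease libraries 3, 4 and 5 (log2 fold change -1.91 ± 0.22 (SE), adjusted p = 0.00478). In T cells the counts behind the levels were small, 19 and 15 UMIs in the controls and 1, 9 and 2 in disease, or 6.33 and 38.3 against 1.91, 0.907 and 0.695 CPM. The groups did not overlap and the difference did not pass the test (log2 fold change -4.27 ± 0.98 (SE), adjusted p = 0.0527). B cells had 46.1 and 89.2 in controls 1 and 2, and 6.76, 28.4 and 12.5 in disease libraries 3, 4 and 5, which also did not overlap and did not pass (log2 fold change -1.89 ± 0.51 (SE), adjusted p = 0.0719). Without disease 5 the calls in all kept cells and in macrophages or monocytes were lost (log2 fold changes -1.88 and -1.84, adjusted p = 0.0635 and 0.051), and the endothelial and fibroblast calls held in each of the 12 alternatives. Without control 1 the T cell difference passed (-5.39, adjusted p = 0.0279), as did that in B cells without disease 4 (-2.68, adjusted p = 0.0331). The T cell difference also passed with DESeq2 (-4.51, adjusted p = 0.000985) and with every gene that had a UMI tested (-4.17, adjusted p = 4.24e-06), and that in B cells with every gene tested (-1.88, adjusted p = 0.000108) and with up to 25% mitochondrial UMIs (-2.10, adjusted p = 0.0442).

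Of the kinases, Jak1 was lower in all 5 lineages and called in 4 of them, and Jak2 did not pass the test in any. Jak1, the kinase bound to Ifngr1 and to many other cytokine receptors, was at 404 and 513 in controls 1 and 2, and 179, 195 and 171 in disease libraries 3, 4 and 5 in T cells (log2 fold change -1.34 ± 0.27 (SE), adjusted p = 0.0336). B cells had 392 and 397 in controls 1 and 2, and 159.9, 202 and 161 in disease libraries 3, 4 and 5 (log2 fold change -1.09 ± 0.18 (SE), adjusted p = 0.0145). In both lymphocyte lineages the 3 disease libraries lay under both controls. Endothelial cells (182 and 152 against 102, 111 and 99, log2 fold change -0.75 ± 0.12 (SE), adjusted p = 0.0121) and fibroblasts (224 and 202 against 103, 145 and 120.2, log2 fold change -0.84 ± 0.17 (SE), adjusted p = 0.0311) were also called. Macrophages or monocytes (219 and 225 against 129, 121 and 128, log2 fold change -0.71 ± 0.17 (SE), adjusted p = 0.0625) did not overlap either but missed the threshold with edgeR (DESeq2 adjusted p = 0.0173), as did all kept cells (log2 fold change -0.70 ± 0.24 (SE), adjusted p = 0.224). None of the 4 calls held with each library's trend on the GC content of the first 300 transcript bases removed (-0.41 in endothelial cells, -0.45 in fibroblasts, -0.79 in T cells and -0.49 in B cells, adjusted p = 0.226, 0.275, 0.182 and 0.26). Nor did any of them hold without disease 5 (-0.70 in endothelial cells, -0.84 in fibroblasts, -1.24 in T cells and -1.02 in B cells, adjusted p = 0.0746, 0.134, 0.245 and 0.0714). The same was so without control 1 (-0.61, -0.73, -1.54 and -1.07 in the same order). Without control 2 the fibroblast, T cell and B cell calls were lost (adjusted p = 0.115, 0.0862 and 0.135), and the T cell call was also lost without disease 3 or 4 (adjusted p = 0.0888 and 0.106), while without disease 4 Jak1 passed in all kept cells (-0.93, adjusted p = 0.0294).

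Jak2, the kinase bound to Ifngr2, had positive log2 fold changes in all 5 lineages, from 0.14 in fibroblasts to 0.70 in T cells, and no call. In T cells it was at 36.7 and 25.5 in controls 1 and 2, and 51.5, 63.4 and 42.7 in disease libraries 3, 4 and 5 (log2 fold change 0.70 ± 0.32 (SE), adjusted p = 0.355). Endothelial cells had 22.2 and 24.8 in controls 1 and 2, and 27.2, 36.6 and 27.2 in disease libraries 3, 4 and 5 (log2 fold change 0.30 ± 0.17 (SE), adjusted p = 0.336). The groups did not overlap in these 2 lineages or in macrophages or monocytes, and the highest library in each of the 3 was disease 4. Without disease 4 the log2 fold change in fibroblasts was -0.0185.

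The transcription factors Stat2 and Irf1 were not called in any lineage. Stat2 was at 90.3 and 79.9 in controls 1 and 2, and 86.3, 138 and 97.5 in disease libraries 3, 4 and 5 in endothelial cells (log2 fold change 0.27 ± 0.21 (SE), adjusted p = 0.478) and 54.6 and 49.96 against 48.1, 109 and 57 in fibroblasts (log2 fold change 0.40 ± 0.36 (SE), adjusted p = 0.511). Disease 4 was the highest library in both, and disease 3 and 5 were near the controls. Without disease 4 the log2 fold change in fibroblasts was -0.0433. Irf1, which activates many interferon-gamma target genes, was at 454 and 383 in controls 1 and 2, and 368, 319 and 466 in disease libraries 3, 4 and 5 in endothelial cells (log2 fold change -0.18 ± 0.18 (SE), adjusted p = 0.567). In macrophages or monocytes it was at 396 and 473 in controls 1 and 2, and 389, 325 and 395 in disease libraries 3, 4 and 5 (log2 fold change -0.13 ± 0.18 (SE), adjusted p = 0.723). Its log2 fold changes spanned -0.25 in fibroblasts to 0.02 in T cells, the narrowest range of the 8 genes over these 5 lineages. The T cell value changed sign when the trend with base composition was removed or when control 2 or disease 3 was left out (-0.08 and -0.09 without those libraries).

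Both inhibitors were lower in disease, Socs1 with calls in fibroblasts, T cells and B cells and Socs3 with calls in endothelial cells and fibroblasts. Socs1, which blocks Jak1 and Jak2 and is itself induced by interferon gamma, was at 99.97 and 123 in controls 1 and 2, and 3.82, 7.05 and 7.30 in disease libraries 3, 4 and 5 in T cells. These rest on 300 and 48 UMIs in the controls and 2, 70 and 21 in disease. Both controls were far above all 3 disease libraries (log2 fold change -4.09 ± 0.31 (SE), adjusted p = 0.00419). B cells had 28.2 and 50.8 in controls 1 and 2, and 2.25, 2.94 and 12.5 in disease libraries 3, 4 and 5, from 1 to 37 UMIs (log2 fold change -2.76 ± 0.62 (SE), adjusted p = 0.0388). Fibroblasts had 36 and 36.5 in controls 1 and 2, and 9.50, 16.3 and 11.3 in disease libraries 3, 4 and 5 (log2 fold change -1.59 ± 0.23 (SE), adjusted p = 0.00865). Endothelial cells (33.9 and 29.5 against 6.99, 18.4 and 11.1, log2 fold change -1.47 ± 0.36 (SE), adjusted p = 0.0574) and macrophages or monocytes (24.5 and 22.5 against 14, 14.9 and 9.40, log2 fold change -0.77 ± 0.26 (SE), adjusted p = 0.183) did not overlap between groups and did not pass. Over all kept cells the levels were 38.2 and 35.7 in controls 1 and 2, and 9.41, 13.7 and 10.8 in disease libraries 3, 4 and 5 (log2 fold change -1.65 ± 0.25 (SE), adjusted p = 0.0246). The call in all kept cells was lost without control 1, control 2 or disease 5 (-1.56, -1.74 and -1.59, the last with adjusted p = 0.146). That in fibroblasts was lost likewise (-1.57, -1.61 and -1.54, the last with adjusted p = 0.0608), and that in T cells without disease 5 (-4.16, adjusted p = 0.0642). The B cell call was lost without control 1, control 2, disease 3 or disease 4 (adjusted p = 0.094, 0.431, 0.0677 and 0.0977), and the endothelial difference passed without disease 4 (-1.85, adjusted p = 0.00551). The endothelial difference also passed with DESeq2 (adjusted p = 0.00968), with every gene tested (0.0209), with a gate lead of 3 markers (0.047) and with up to 25% mitochondrial UMIs (0.0375).

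Socs3, the inhibitor that acts mainly on receptors of the interleukin 6 family, was at 235 and 220.3 in controls 1 and 2, and 107, 88.2 and 111 in disease libraries 3, 4 and 5 in fibroblasts (log2 fold change -1.20 ± 0.14 (SE), adjusted p = 0.00449). In endothelial cells the levels were 142 and 116 in controls 1 and 2, and 63.6, 44.4 and 55.7 in disease libraries 3, 4 and 5 (log2 fold change -1.29 ± 0.18 (SE), adjusted p = 0.00846). In both, the controls were above every disease library. Macrophages or monocytes, with the highest levels, had 319 and 312 in controls 1 and 2, and 201, 146 and 165 in disease libraries 3, 4 and 5, which did not overlap and missed the threshold (log2 fold change -0.79 ± 0.18 (SE), adjusted p = 0.0552). T cells (86.6 and 163 against 53.5, 26.7 and 25, log2 fold change -1.89 ± 0.49 (SE), adjusted p = 0.0821) and B cells (48.6 and 31.6 against 24.8, 19.6 and 10.7, log2 fold change -1.01 ± 0.42 (SE), adjusted p = 0.213) did not pass. Over all kept cells it was called (218 and 183 against 103, 80.8 and 91.7, log2 fold change -1.10 ± 0.16 (SE), adjusted p = 0.023). That call was lost without any 1 of control 1, control 2, disease 3 and disease 5 (-0.92, -1.25, -1.17 and -1.07, the last 2 with adjusted p = 0.0588 and 0.17). The endothelial call was lost without control 1 or disease 5 (-1.14 and -1.29, the latter with adjusted p = 0.0621). Without disease 3 the T cell difference passed (-2.27, adjusted p = 0.0495), as it did with DESeq2 (-1.84, adjusted p = 0.0253) and with every gene tested (-1.81, adjusted p = 0.000157). In macrophages or monocytes Socs3 passed with DESeq2 (-0.78, adjusted p = 0.00827) and with a gate lead of 3 markers (-0.83, adjusted p = 0.0461), and the fibroblast call held in each of the 12 alternatives.

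**Figure D2:**
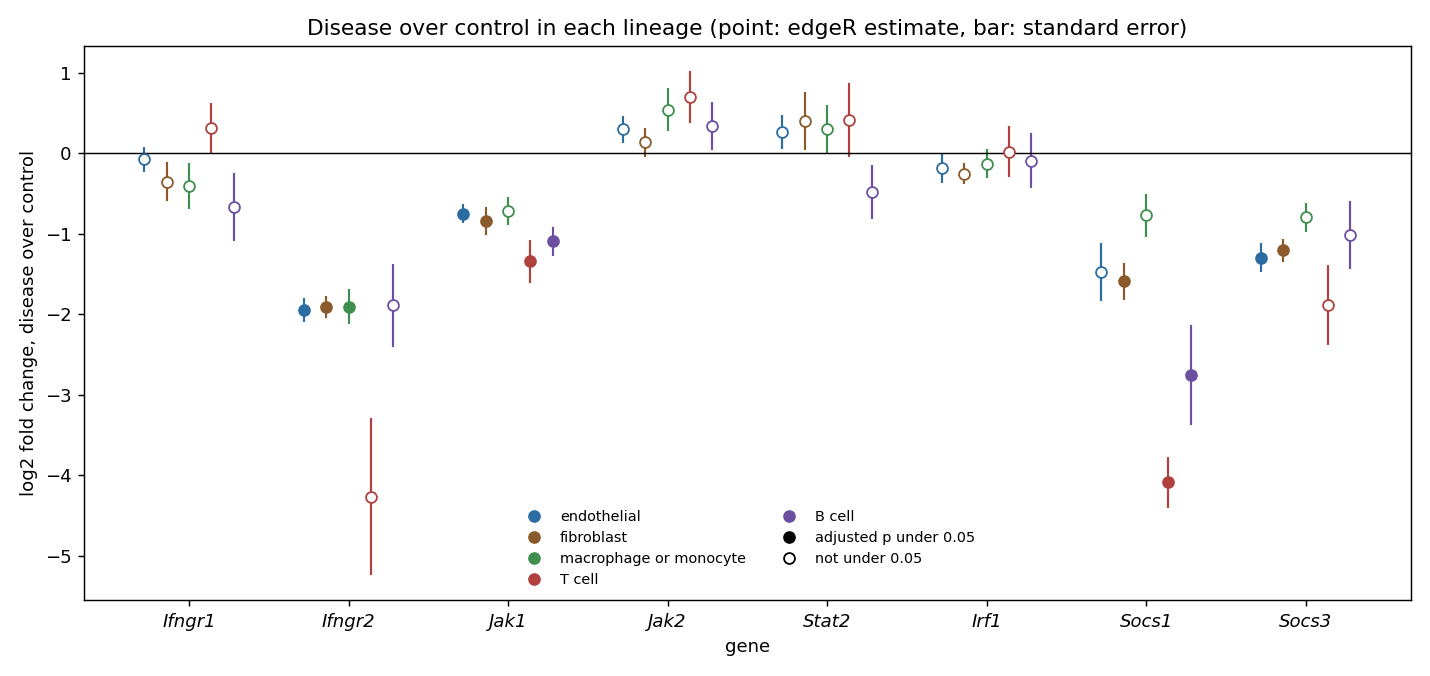
Log2 fold change of disease over control for each gene (x axis) in 5 lineages (colours), with the edgeR estimate as a point and its standard error as a bar, filled where the adjusted p was under 0.05. The filled points are all under 0, and the lowest Socs1 point is that of T cells, at -4.09, followed by B cells at -2.76.

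Whether a gene differed between the groups by unequal amounts in the 5 lineages was tested with a lineage by group term, fitted with the library as a block. Socs1 was the only one of the 8 genes that passed (F = 19.7, adjusted p = 0.00139), and 12 of 13624 genes did so in all (0.0881%). The other 7 had adjusted p-values from 0.631 for Ifngr1 to 0.967 for Irf1. The log2 fold change of Socs1 in T cells minus that in endothelial cells was -2.52 ± 0.36, adjusted p = 0.00376, a contrast in which 0.0587% of all genes were called. Against fibroblasts it was -2.43 ± 0.35, adjusted p = 0.00256 (0.0807% of genes called). Against macrophages or monocytes it was -3.06 ± 0.37, adjusted p = 0.000541 (0.0294%). Between T and B cells the difference of -1.12 ± 0.69, adjusted p = 1 did not pass. Without control 1 or control 2 the term missed the threshold (adjusted p = 0.0745 and 0.0525). Markers of fibroblasts, summed, were at 0.855% of their fibroblast level in T cells (226.9 CPM), and the part of RNA from other cells in the T cell values was not tested.

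Genes differed between the groups with the base composition of their 5-prime ends, the end this chemistry reads. In endothelial cells 3.17% of genes in the lowest decile by GC content of the first 300 transcript bases were called lower, against 29.2% and 24.4% in the 2 highest deciles. In fibroblasts these shares were 3.67%, 31.7% and 27.6%, and in T cells 1.03%, 14.5% and 14.6%. The GC content of the 8 genes was 58% for Stat2, 60.7% for Irf1, 62.3% for Ifngr1, 65.3% for Ifngr2, 67.7% for Jak1, 69.3% for Socs3, 73.7% for Socs1 and 80.3% for Jak2. The 4 genes with calls thus lay between 65.3 and 73.7%, and Jak2, the gene richest in GC, had no call. With the trend on GC removed from each library, Jak1 lost all 4 of its calls, with the values given above. Socs1 lost those in all kept cells (-1.33, adjusted p = 0.0866) and B cells (-2.11, adjusted p = 0.0943), and Socs3 that in all kept cells (-0.70, adjusted p = 0.161). All 4 Ifngr2 calls, Socs1 in T cells and fibroblasts, Socs3 in endothelial cells and fibroblasts, and the Socs1 lineage by group term (adjusted p = 0.00246) passed with the trend removed. What the trend stems from was not tested.

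**Figure D3:**
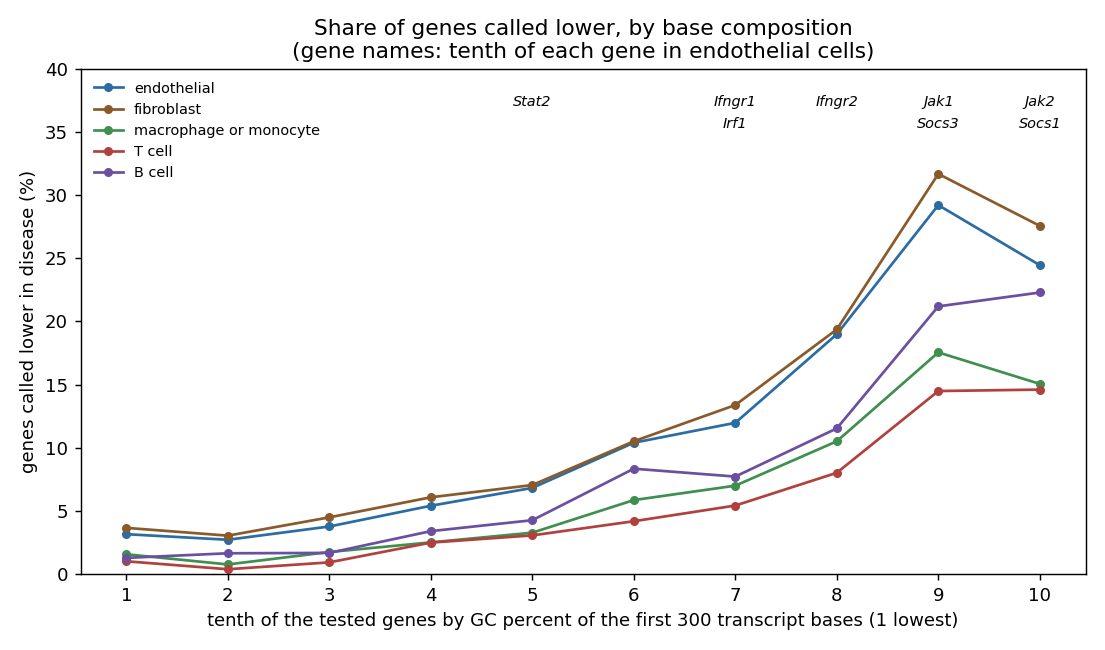
Share of genes called lower in disease (y axis, percent) by decile of the tested genes in GC content of the first 300 transcript bases (x axis, 1 lowest), 1 line per lineage, with the decile of each of the 8 genes in endothelial cells written above. The share climbs from 3.17% to 29.2% between deciles 1 and 9 in endothelial cells, and Jak1 and Socs3 sit in decile 9.

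Around these 8 genes, 37 other genes of cytokine receptors, kinases, Stat and Irf factors, Socs proteins and phosphatases were read as a pathway list. None was called higher in any fit with edgeR or DESeq2, and over the 5 lineages at an unadjusted p under 0.05 edgeR had 6 of 169 gene and lineage pairs higher (3.55%, beside 4.83% over all genes) and 37 lower (21.9%, beside 17.6%). Called lower were 2 of 37 in all kept cells, 8 of 37 in endothelial cells, 6 of 36 in fibroblasts, 3 of 35 in macrophages or monocytes, 2 of 36 in T cells and 5 of 25 in B cells, beside 6.44%, 11.6%, 12.6%, 6.52%, 5.42% and 8.29% of all genes. Medians over the list lay between -0.11 and 0.11 on the log2 scale, beside medians over all genes of -0.01 to 0.04. Ifnar2, a chain of the type I interferon receptor, was called in all 6 fits, with log2 fold changes from -1.62 in macrophages or monocytes to -2.32 in T cells. In T cells its levels were 83 and 61.3 in controls 1 and 2, and 21, 13.3 and 13.2 in disease libraries 3, 4 and 5, again with no overlap. Ptpn1, a phosphatase that removes phosphate from Jak kinases, was called in all 5 lineages (-1.26 in macrophages or monocytes to -2.06 in T cells), and Ptpn11, another phosphatase of cytokine signalling, in endothelial cells, fibroblasts and macrophages or monocytes (-0.90, -0.99 and -0.89) and in all kept cells. Ifnar1 was called lower in endothelial cells, fibroblasts and B cells (-0.84, -0.72 and -1.36). Il10rb, a receptor chain shared by interleukin 10 and lambda interferons, was called lower in endothelial cells and fibroblasts (-0.53 and -1.05), as was Il6ra (-0.98 and -0.68). Socs2 and Socs4 were called lower in endothelial cells (-1.08 and -0.46), and Irf5 and Irf8, factors of myeloid and B cells, in B cells (-1.44 and -1.74). Pathway genes were counted with DESeq2 but not read under the other alternatives. Without disease 5 only 1 of 8425 genes tested was called in T cells, so the calls of Ifnar2 and Ptpn1 there did not both hold.

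Ifng itself, the ligand, was read in T cells. There it had 1097, 11, 109, 4147 and 927 UMIs, or 366 and 28.1 against 208, 418 and 322 CPM. Control 1 lay among the disease libraries and control 2 was the lowest (log2 fold change 0.65 ± 0.79 (SE), adjusted p = 0.75). Of 26 interferon-gamma target genes, none was called in any fit with edgeR or DESeq2. At an unadjusted p under 0.05, 5 of 117 gene and lineage pairs (4.27%) were higher and 0 lower with each tool, beside 4.83% higher and 17.6% lower over all genes with edgeR and 4.43% and 15.3% with DESeq2. Disease had the higher estimate for 24 of 26 in all kept cells and in endothelial cells, 23 of 24 in fibroblasts, 23 of 25 in macrophages or monocytes, 20 of 23 in T cells and 15 of 19 in B cells. The libraries of the 2 groups overlapped for most targets: they did not overlap for 0 of 26 in all kept cells, 0 of 26 in endothelial cells, 0 of 24 in fibroblasts, 2 of 25 in macrophages or monocytes, 3 of 23 in T cells and 2 of 19 in B cells, beside 36.4%, 49.9%, 50.5%, 36.8%, 32.3% and 38.6% of all genes. Their median log2 fold change was 1.62 in fibroblasts, 1.02 in macrophages or monocytes, 0.58 in endothelial cells, 0.56 in T cells and 0.37 in B cells. Cd74, the invariant chain of class II antigen presentation and the most abundant of them in macrophages or monocytes, was at 32446 and 22958 in controls 1 and 2, and 24791, 60386 and 37539.5 in disease libraries 3, 4 and 5. Disease 4 was the highest and disease 3 lay between the controls (log2 fold change 0.69 ± 0.46 (SE), adjusted p = 0.453).

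Across lineages the 8 genes had distinct orders of level, tested within libraries with the library as a block. Of 40 gene and lineage pairs, 27 differed from the mean of the other 4 lineages, 14 higher and 13 lower. Of these 27, 5 were lost under some alternative: Socs1 in T cells, Stat2 in macrophages or monocytes and T cells, and Socs3 in endothelial cells and T cells. Of the 13 pairs with no call, only the pair furthest from 0, Socs1 in endothelial cells, was read under the alternatives. Whether the others gained a call was not tested. Socs1 in endothelial cells was lower than the mean of the other lineages with every gene tested (-0.45, adjusted p = 0.0175) and without disease 4 (-0.70, adjusted p = 0.0121). In endothelial cells, 2 of 8 genes were called higher and 3 lower, beside 36% and 33.7% of all genes. In fibroblasts, 1 of 8 genes were called higher and 2 lower, beside 40% and 34.1% of all genes. In macrophages or monocytes, 4 of 8 genes were called higher and 0 lower, beside 33.8% and 28.7% of all genes. In T cells, 4 of 8 genes were called higher and 4 lower, beside 33.2% and 30.1% of all genes. In B cells, 3 of 8 genes were called higher and 4 lower, beside 20.2% and 28% of all genes. Called in either direction were 69.7%, 74.2%, 62.5%, 63.3% and 48.2% of all genes in the same order of lineages. Against endothelial cells, the share of all genes called was 65.2% in fibroblasts, 69.2% in macrophages or monocytes, 70.9% in T cells and 58.8% in B cells. Against fibroblasts, the share of all genes called was 70.8% in macrophages or monocytes, 74.9% in T cells and 65.3% in B cells. Against macrophages or monocytes, the share of all genes called was 64.3% in T cells and 49.9% in B cells. Against T cells, the share of all genes called was 33.9% in B cells. Ifngr1 was highest in T cells, at 502 ± 105 CPM (mean ± SD over 5 libraries), 1.79 ± 0.13, adjusted p = 1.18e-12 against the other lineages on the log2 scale. Fibroblasts (246 ± 54.2), endothelial cells (242 ± 25.5) and macrophages or monocytes (214 ± 67.6) followed, and no step between these neighbours passed (adjusted p = 0.518 and 0.303). B cells were lowest at 77.2 ± 33.6. In NK cells, too few in each library for the test, Ifngr1 was at 1121 ± 227. Ifngr2 had a different order: macrophages or monocytes stood first at 57 ± 43.4, and the step to B cells at 36.6 ± 33.1 did not pass (adjusted p = 0.172). Endothelial cells and fibroblasts followed at 24.8 ± 18 and 22.3 ± 15.8, a step that did not pass (adjusted p = 0.907), and T cells were last at 9.63 ± 16.2, -2.91 ± 0.32, adjusted p = 8.81e-09 against the others. NK cells had 0 Ifngr2 UMIs among 339261 over the 5 libraries, which allows up to 8.84 CPM (3 counts, counting error only). By these means, the lineage with the most Ifngr1 among those tested had the least Ifngr2. In control 2, however, Ifngr2 was at 38.3 CPM in T cells, beside 38 in fibroblasts and 39.9 in endothelial cells.

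Among the 5 lineages tested, Jak1 was highest in T cells (293 ± 157) and B cells (262 ± 122), a step that did not pass (adjusted p = 0.678). Macrophages or monocytes (164 ± 52.8), fibroblasts (159 ± 52.4) and endothelial cells (129 ± 36.6) followed. Each step from B cells on passed (adjusted p = 1.46e-05, 0.00679 and 0.00242). Among the same 5 lineages, Jak2 was also highest in T cells (44 ± 14.4) and B cells (41.6 ± 6.73), a step that did not pass either (adjusted p = 0.608). It was between 22.3 ± 3.58 and 27.6 ± 5.45 in the other 3. Stat2 was highest in endothelial cells (98.4 ± 22.9), 0.87 ± 0.11, adjusted p = 5.78e-08 against the others, and lowest in T cells (31.5 ± 15.5) and B cells (26.3 ± 6.52). The lower level of Stat2 in T cells missed the threshold without control 1 (adjusted p = 0.0544), and its higher level in macrophages or monocytes with a gate lead of 3 markers (0.0568) and without control 1, disease 4 or disease 5 (0.0501, 0.0564 and 0.0587). Irf1 was high in endothelial cells (398 ± 61.6) and macrophages or monocytes (396 ± 52.5), and lower in fibroblasts (262 ± 27.1), T cells (175 ± 28.2) and B cells (129.7 ± 34.6). For Irf1 the means put endothelial cells level with macrophages or monocytes, while the TMM-scaled fit put them lower (-0.42, endothelial minus macrophages or monocytes, log2 scale, adjusted p = 0.0014). For Jak2 the mean was higher in endothelial cells (27.6 ± 5.45) than in macrophages or monocytes (24.9 ± 5.47), and the fit again had the opposite sign (-0.29, adjusted p = 0.0364). The order for Socs1 was not the same in the 2 groups. In controls T cells had the highest mean, 111 CPM against 23.5 to 39.5 in the other 4 lineages, while in disease they were at 6.06, under endothelial cells (12.2), fibroblasts (12.4) and macrophages or monocytes (12.8) and beside B cells (5.90), and in each disease library T cells lay under those 3 lineages. Over all 5 libraries together the T cell mean was 48.1 ± 58.2, 0.89 ± 0.31, adjusted p = 0.0133 against the others, and no step among the other 4 lineages passed. That T cell mean joins 2 controls of 99.97 and 123 with 3 disease libraries of 3.82, 7.05 and 7.30, and without control 1 the difference was 0.23 (adjusted p = 0.667), without disease 3 it was 0.85 (adjusted p = 0.0529). It also missed the threshold with DESeq2 (0.70, adjusted p = 0.107) and RLE scaling (0.73, adjusted p = 0.0661). Socs3 was highest in macrophages or monocytes (229 ± 81.9), 1.98 ± 0.12, adjusted p = 2.92e-14, then fibroblasts (152 ± 69.7), endothelial cells (84.2 ± 42.2), T cells (71.1 ± 57.4) and B cells (27.1 ± 14.3), and of these steps that from endothelial cells to T cells did not pass (adjusted p = 0.81). Against the mean of the others, the lower Socs3 in endothelial cells missed the threshold with DESeq2, with RLE scaling and without disease 3 or disease 4 (adjusted p = 0.0646, 0.0551, 0.106 and 0.0798), and that in T cells without control 1, disease 4 or disease 5 (0.0655, 0.0846 and 0.099).

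Subsets of T cells and myeloid cells differed in Jak2. CD8 T cells, which had Cd8a or Cd8b1 UMIs but no Cd4 UMI, were compared with CD4 T cells in 4 libraries (control 2 had under 20 CD4 cells), and 1 of the 6 genes tested was called, where 5.9% of all genes were (2.73% higher and 3.17% lower in CD8 cells). Jak2 was at 109 in CD4 and 30.2 in CD8 cells of control 1, 92.1 and 47.2 in disease 3, 124 and 57.5 in disease 4, and 159 and 37.9 in disease 5. CD8 cells were lower in each of the 4 libraries (-1.50 ± 0.24, adjusted p = 0.000493). The CD4 values rest on 24, 8, 66 and 20 UMIs. Socs3 was next (-0.94 ± 0.28, adjusted p = 0.0601) and passed without disease 3 (-1.08, adjusted p = 0.0197), and Ifngr1, Irf1, Jak1 and Stat2 did not pass (-0.000422, -0.00433, 0.15 and 0.67). Ifngr2 and Socs1 did not pass the filter on low counts over these subset sums and were not tested. Of 19 pathway genes tested, 4 were called: Ifng (-0.85 ± 0.20, adjusted p = 0.0144) and Stat5a (-1.55), a mediator of interleukin 2 signals, were lower in CD8 cells, and Il10ra (1.22) and Stat3 (0.84) were higher.

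Monocytes (at least 2 UMIs over Ly6c2, Plac8, Ccr2 and Chil3 and none of the resident markers) were compared with resident macrophages (the reverse, over Lyve1, Folr2, Timd4 and Cd163) in all 5 libraries. Jak2 was again the only 1 of 8 genes called, where 35.8% of all genes were (18.7% higher and 17.1% lower in monocytes). It was at 19.9 in resident and 22.3 in monocyte cells of control 1, 16.4 and 54.4 in control 2, 23.5 and 33 in disease 3, 28.1 and 34.9 in disease 4, and 19.3 and 35.8 in disease 5. Monocytes were higher in every library (0.79 ± 0.20, adjusted p = 0.00451), by least in control 1. The monocyte values of control 2 and disease 3 rest on 31 and 38 cells. Ifngr2 (0.34 ± 0.15, adjusted p = 0.093) and the other 6 genes, from -0.22 for Irf1 to 0.03 for Socs1, did not pass. Of 32 pathway genes, 9 were called higher in monocytes and 2 lower. Higher were Cish (2.45), an inhibitor of the Socs family, Ptpn2 (0.93), Irf7 (0.90), Irf5 (0.71), Jak3 (0.68), Il10ra (0.54), Ptpn1 (0.54), Ptpn6 (0.51) and Irf8 (0.48), and lower were Il6ra (-0.51) and Pias1 (-0.41). Of 25 interferon-gamma target genes, 19 were higher in monocytes and none lower.

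**Figure D4:**
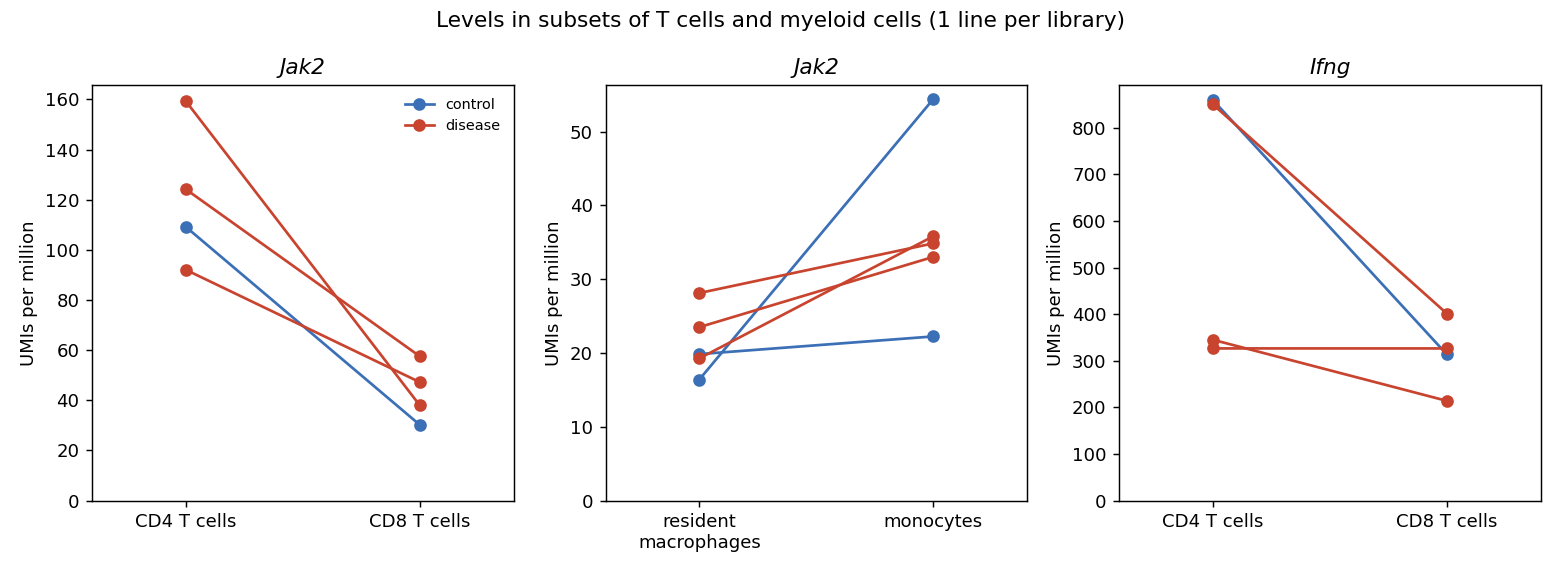
Levels (y axis, CPM, from 0) of Jak2 in CD4 and CD8 T cells (left, 4 libraries), of Jak2 in resident macrophages and monocytes (middle, 5 libraries) and of Ifng in CD4 and CD8 T cells (right, 4 libraries), with 1 line per library, blue for control and red for disease. All Jak2 lines fall from CD4 to CD8 cells and climb from resident macrophages to monocytes.

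The genes most like each of the 8 were sought by Pearson correlation over 25 library and lineage sums, each centred within its lineage, among 3062 genes. These points share 5 libraries, their depth and their base composition, so the correlations are descriptions. Ifngr2 was closest to Crlf3 (0.98), Arhgef1 (0.94) and Atp1b3 (0.93), and Jak1 to Ppp2r2a (0.97), Zfand5 (0.96) and Ube2d2a (0.96). Socs1 was closest to Eif5 (0.94), Pdcd6ip (0.91) and Arhgef1 (0.90), and Socs3 to Nop53 (0.92), Nfkbia (0.92) and Ubac2 (0.91), of which Nfkbia is the inhibitor of NF-kB. Jak2 was closest to Rars (0.93), Ccndbp1 (0.92) and Vps28 (0.92), and Stat2 to Icam1 (0.89), Tapbpl (0.87) and Samd9l (0.87), which include the adhesion molecule Icam1. Ifngr1 was closest to Copb1 (0.80), Hsd17b4 (0.80) and Adprh (0.78), and Irf1 to Dmac1 (0.76), Pfdn2 (0.73) and Selenom (0.72). Among the 8 genes themselves, Ifngr2 and Jak1 were most alike (0.92), followed by Ifngr2 and Socs3 (0.87) and Jak1 and Socs1 (0.86), and Ifngr2 and Jak2 were the most opposed (-0.78).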

How the data were processed

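Five-prime single-cell RNA libraries (10x Genomics) were made from sorted heart cells. The values deposited by the authors are raw UMI counts per gene and barcode. Per the file headers Cell Ranger 3.1.0 wrote them, and the submitters' processing notes also name Cell Ranger 3 and Seurat 3 and the builds mm10 and GRCh38. Cells with at least 500 UMIs, 200 genes and at most 10% mitochondrial UMIs were kept, and Scrublet doublets (scanpy 1.11.5, 0.8% per 1000 cells expected, 1.45 to 4.56% of a library) were removed. A cell took the lineage with most of 6 markers detected, at least 2 and 2 more than any other, which assigned 86.6 to 90.6% of cells. Counts were summed per library and lineage and compared by the quasi-likelihood F test of edgeR 4.0.16 under R 4.3.3 (TMM, filterByExpr, glmQLFTest, Benjamini-Hochberg over all genes tested, threshold 0.05), and each SE was taken as |log2 fold change| divided by the root of F. Comparisons of lineages and subsets had the library as a block, and subsets needed 20 cells in each library used. Alternatives were DESeq2 1.42.0, RLE scaling, no filter on low counts, a gate lead of 3, 25% mitochondrial UMIs, doublets kept, the GC trend removed and each library left out. GC content came from GENCODE vM21 transcripts (GRCm38), with 30881 of 31053 features matched. Promoters are RefSeq windows (GRCm38.p6), found for all 8 genes with 9 entries. The members and lists were chosen with earlier results of these data known, and 1 gene of the pathway list is not reported here. Named genes were the 8 members, called genes of the pathway list, Ifng, the 3 genes most like each member, up to 3 abundant targets, and Ctla4 and Pdcd1. Intervals and floors cover counting error only.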

Additional observations from a re-analysis of the deposited data

Results flagged for a closer look

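The difference of Socs1 between the groups varied with the lineage by the test of the lineage by group term, with an adjusted p of 0.00139. The term missed the threshold without control 1 or control 2 (adjusted p = 0.0745 and 0.0525), and T cells against B cells alone did not pass (adjusted p = 1). Socs1 fell by 4.09 on the log2 scale in T cells, where both control libraries were at 99.97 and 123 CPM and no disease library was above 7.30. In macrophages or monocytes its log2 fold change was -0.77, and its level was 24.5 and 22.5 against 14, 14.9 and 9.40 CPM, controls first.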

How the results depend on the processing

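Of the 15 calls between the groups over 6 fits, 3 held under all 12 alternatives, and every called value kept its sign. With each library left out in turn, the number of genes called ran over all kept cells from 0 (without disease 5) to 4 (without disease 4), over the 5 lineages from 4 to 12 of 40 pairs, in endothelial cells from 1 to 4, in fibroblasts from 2 to 4, in macrophages or monocytes from 0 to 1, in T cells from 0 to 2, in B cells from 0 to 2, for the lineage by group term from 0 to 1, and for CD8 minus CD4 T cells from 1 to 2. Without disease 5 only 1 of 8425 genes tested was called in T cells, against 530 with all libraries. Removing the GC trend left 1 call in all kept cells, 7 over the lineages, 1 in T cells and 0 in B cells. DESeq2 called 3 genes in macrophages or monocytes and 4 in T cells, and 5 pathway genes in all kept cells where edgeR called 2, testing every gene with a UMI called 4 in T cells, and a gate lead of 3 markers called 2 in macrophages or monocytes. RLE scaling, doublets kept and a limit of 25% mitochondrial UMIs changed no count by more than 1.5 times. Signs of values that were not called changed as follows, among them Stat2 in fibroblasts, which was at 0.40 with all libraries. With the GC trend removed, Ifngr1 was at 0.0842 in all kept cells and 0.0333 in endothelial cells, and Irf1 at -0.0009 in T cells. With single libraries left out, Ifngr1 ranged from -0.126 to 0.0492 in all kept cells, Irf1 ranged from -0.3931 to 0.3063 in B cells, Irf1 ranged from -0.0923 to 0.2069 in T cells, Ifngr1 ranged from -0.191 to 0.047 in endothelial cells, Jak2 ranged from -0.0185 to 0.2568 in fibroblasts, Stat2 ranged from -0.0433 to 0.6128 in fibroblasts and Stat2 ranged from -0.0556 to 0.4594 in macrophages or monocytes. The causes of these changes were not tested. No paired analysis was possible because the labels give the libraries no numbers that are shared between the groups. T cell values rest on 86 cells in control 2 and 116 in disease 3.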

Other observations

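Ifngr2 lies on chromosome 16 (GRCm38, 91547072 to 91565623) beside the genes of 3 related receptor chains, Ifnar2, Il10rb and Ifnar1, whose starts lie within 500 kb. All 4 chains had negative estimates in each of the 6 fits. Among the genes tested in this window, 4 of 12 were called lower in endothelial cells and 4 of 13 in fibroblasts, and these were the 4 receptor chains. In the other fits 2 of 14 were called lower in all kept cells, 2 of 12 in macrophages or monocytes, 1 of 11 in T cells and 2 of 7 in B cells. The share of all genes called lower was 11.6% in endothelial cells, 12.6% in fibroblasts, 6.44% in all kept cells, 6.52% in macrophages or monocytes, 5.42% in T cells and 8.29% in B cells. The chains differed in size: in fibroblasts Ifnar2 was at -1.996, Ifngr2 at -1.91, Il10rb at -1.05 and Ifnar1 at -0.72 on the log2 scale. Other genes of the window were not called in any fit. This window was chosen after these values were seen.

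In lineages too small for the test, Irf1 was at 455 ± 90.1 CPM in mural cells and 390.03 ± 67.6 in Schwann cells (mean ± SD over 5 libraries). Socs3 was at 217 ± 107 in mural cells and 181 ± 89.6 in Schwann cells. Jak2 reached 95.9 ± 22.1 in dendritic cells and 79.2 ± 35.9 in neutrophils, which rest on few cells in each library. Jak1 was at 555 ± 271 in NK cells and 274 ± 68.1 in neutrophils. Socs1 in NK cells was read at 8 and 5 UMIs in controls 1 and 2, and 0, 1 and 0 in disease libraries 3, 4 and 5.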
